A study of Danio rerio with 2 samples.

Results

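Keratins, the intermediate filament proteins that give epithelial cells their mechanical strength, were followed as a gene set through single cells of the zebrafish (Danio rerio) larval caudal fin fold. The set was every gene of the deposited gene list whose name starts with krt followed by a digit or a t, together with cyt1 and cyt1l, which are keratin genes that keep older names, and it held 20 of the 15411 listed genes. Fin folds were amputated in larvae of 3 days post fertilization and collected 24 h post-amputation (hpA), which is the cut group. Intact fin folds collected at the same time made up the uncut group. About 150 fin folds were pooled for each group, dissociated and captured with the 10X Genomics 3′ chemistry, so that each condition was 1 library. The strain and any transgene carried by these larvae were not given for this experiment in the sources used here. Neither condition was replicated, so no test could be run and no p-value is given. Each interval below is a 95% counting interval and covers counting error only, not the variation between pools of larvae. Intervals on UMIs treat every UMI as independent, so they do not cover the variation between cells of a library either.

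Keratin filaments form from obligate pairs of an acidic type I chain and a basic type II chain, and different epithelia use different pairs. In mammals KRT5 marks the basal layer of the epidermis together with KRT14 and KRT15, KRT8 and KRT18 form the pair of simple epithelia, and KRT17 is a keratin of appendages and of wounded epidermis. In zebrafish larvae the fin fold is covered by a superficial (periderm) layer above a basal layer. The krt4 promoter is widely used to drive transgenes in the superficial cells and the krtt1c19e promoter to drive them in basal keratinocytes, and krt8 and krt18a.1 belong to the simple epithelial kind. No keratin sequence is shown, since none was among the files used.

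The cut library held 762 cells and 7376980 unique molecular identifiers (UMIs, 1 per captured RNA molecule), and the uncut library held 878 cells and 10458222 UMIs, where about 4000 cells per library had been aimed for. The median cell had 7699.5 UMIs in the cut library and 10476.5 in the uncut library, and no cell barcode was shared by both. Levels are given as UMIs per 1000000 UMIs of the cells in question (UPM). Because the chemistry captures the 3′ end of each molecule, levels of different keratins are compared per molecule and not per length of the transcript. Closely related keratins can share sequence, and reads that could not be told apart between copies would have been lost or misassigned, so that levels of neighbouring copies such as cyt1 and cyt1l carry that uncertainty.

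Cells were clustered on all genes except the keratins, and clusters were named by marker genes that did not include any keratin. Superficial-like cells numbered 434 in the cut and 323 in the uncut library. Their envelope and junction markers cldne and ppl were at 2449 and 1129 UPM in the cut superficial-like cells, against 149 and 97.4 UPM in all other cut cells. Of the 11 superficial markers in the gene list, cdh1 went the other way in cut, at 277 against 315 UPM. The largest superficial-like cluster (214 cells) raised 3 of these markers, the fewest that allowed the name. Basal-like cells were far fewer, 28 and 97, and raised tp63, the transcription factor of basal keratinocytes, to 492 and 536 UPM against 20.4 and 34.7 UPM elsewhere. Both basal-like clusters also raised markers of the apical epithelial cap, the thickened epithelium at the fold edge, and the 18 and 36 cap-like cells in turn raised 7 basal markers beside 13 cap markers, so that the border between basal and cap cells was not sharp. Basal markers summed to 6061 and 7614 UPM in basal-like cells, but to 13178 and 11227 UPM in cap-like cells. Cap markers summed to 27406 and 48455 UPM in basal-like cells, and to 23118 and 35107 UPM in cap-like cells. These sums did not bear out the basal and cap names, which limits any comparison of those groups. The other named groups used here were mesenchyme-like (97 and 273 cells), myeloid-like (36 and 11 cells) and neuromast-like cells (18 and 31 cells), the last being the sensory organs of the lateral line. Shares of cells per group were not compared between conditions.

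Epithelial cells held nearly all of the keratin RNA. Keratins made up 15.8% (15.8 to 15.8) of all UMIs of superficial-like cells in the cut library and 16.0% (16.0 to 16.1) in the uncut library. The median superficial-like cell gave 13.4% and 12.9% of its UMIs to keratins, and its quartiles ran from 7.73% to 18.8% and from 8.01% to 19.0%. Among the named groups basal-like cells came next, with keratins at 4.98% and 6.04%. Higher shares were found in both clusters that no marker list could name. Unnamed cluster 15 (19 and 5 cells) stood at 18.3% and 22.5%, above the superficial-like cells, and unnamed cluster 10 at 5.83% and 8.70%. Cycling cells lay between basal-like and cap-like cells in both libraries. Shares in cap-like cells were 1.15% (1.09 to 1.21) and 1.46% (1.42 to 1.51), and neuromast-like cells held a comparable 1.37% and 1.51%. Mesenchyme-like cells gave 0.224% and 0.249% of their UMIs to keratins. Muscle-like cells, which should lack keratins, stood lowest at 0.0276% and 0.0230%. Over the whole library keratins took 12.1% of UMIs in cut and 8.62% in uncut, and superficial-like cells were 434 of 762 and 323 of 878 cells.

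**Figure D1:**
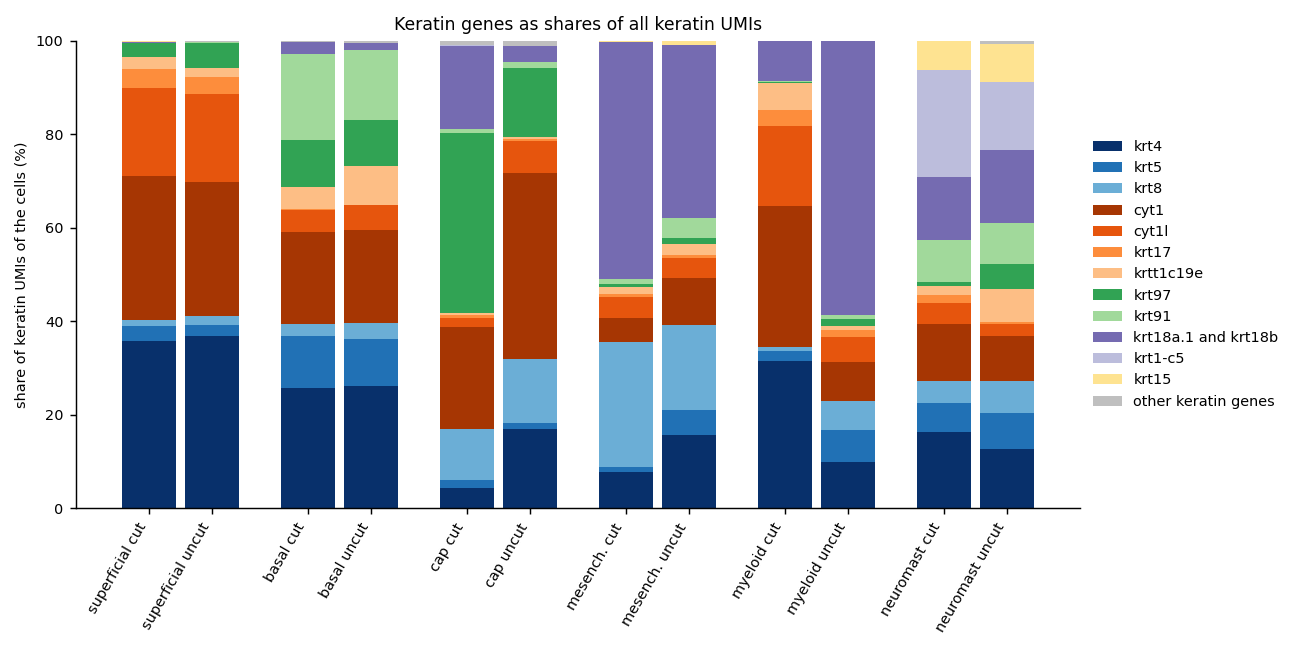
Composition of the keratin RNA in 6 cell groups, as stacked percentages of all keratin UMIs of the group (vertical axis, percent), with a bar for each library. In superficial-like cells krt4, cyt1 and cyt1l fill most of the bar (35.8%, 30.8% and 19.0% in cut), in basal-like cells krt91 appears as a large share, and in neuromast-like cells krt1-c5 does.

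Superficial-like cells relied on a small set of very abundant keratins. The type II gene krt4 stood at 56592 UPM (56389 to 56795) in cut and 58968 UPM (58751 to 59185) in uncut, and every superficial-like cell held it. The type I gene cyt1 followed at 48745 and 46075 UPM and cyt1l at 29986 and 30155 UPM. They were 35.8%, 30.8% and 19.0% of the keratin UMIs of cut superficial-like cells, and 36.8%, 28.7% and 18.8% in uncut. Next came krt17 (6196 and 5933 UPM), krt5 (4825 and 3798 UPM), krt97 (4783 and 8773 UPM), krtt1c19e (4102 and 2789 UPM) and krt8 (2097 and 3139 UPM). These 5 genes, the simple epithelial krt8 among them, thus stood far below the leading 3 in both libraries. Lower still, krt15, krt91, krt99 and krt96, ran from 107 to 341 UPM in cut and from 32.2 to 239 UPM in uncut, and krt18a.1, krt18b and krt92 stayed under 60 UPM.

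Most of each abundant superficial keratin was in these cells. The superficial-like cells carried 95.5% of the cyt1 UMIs of the cut library and 89.9% of those of the uncut library. For krt17 these shares were 97.7% and 93.2%, and for krt99 they were 99.1% and 98.0%. By its ratio to all other cells krt99 was the keratin most concentrated in superficial-like cells, 45.3-fold higher there in cut (108 against 2.39 UPM) and 56.1-fold higher in uncut (239 against 4.25 UPM). The gene krtt1c19e, whose promoter is used to drive transgenes in basal keratinocytes, was at 4102 and 2789 UPM in superficial-like cells and at 2268 and 4991 UPM in basal-like cells, so that its higher summed level was in superficial-like cells in the cut library and in basal-like cells in the uncut library. Its median per cell was higher in basal-like cells in both libraries, 421 against 197 UPM in cut and 127 against 66.4 UPM in uncut.

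**Figure D2:**
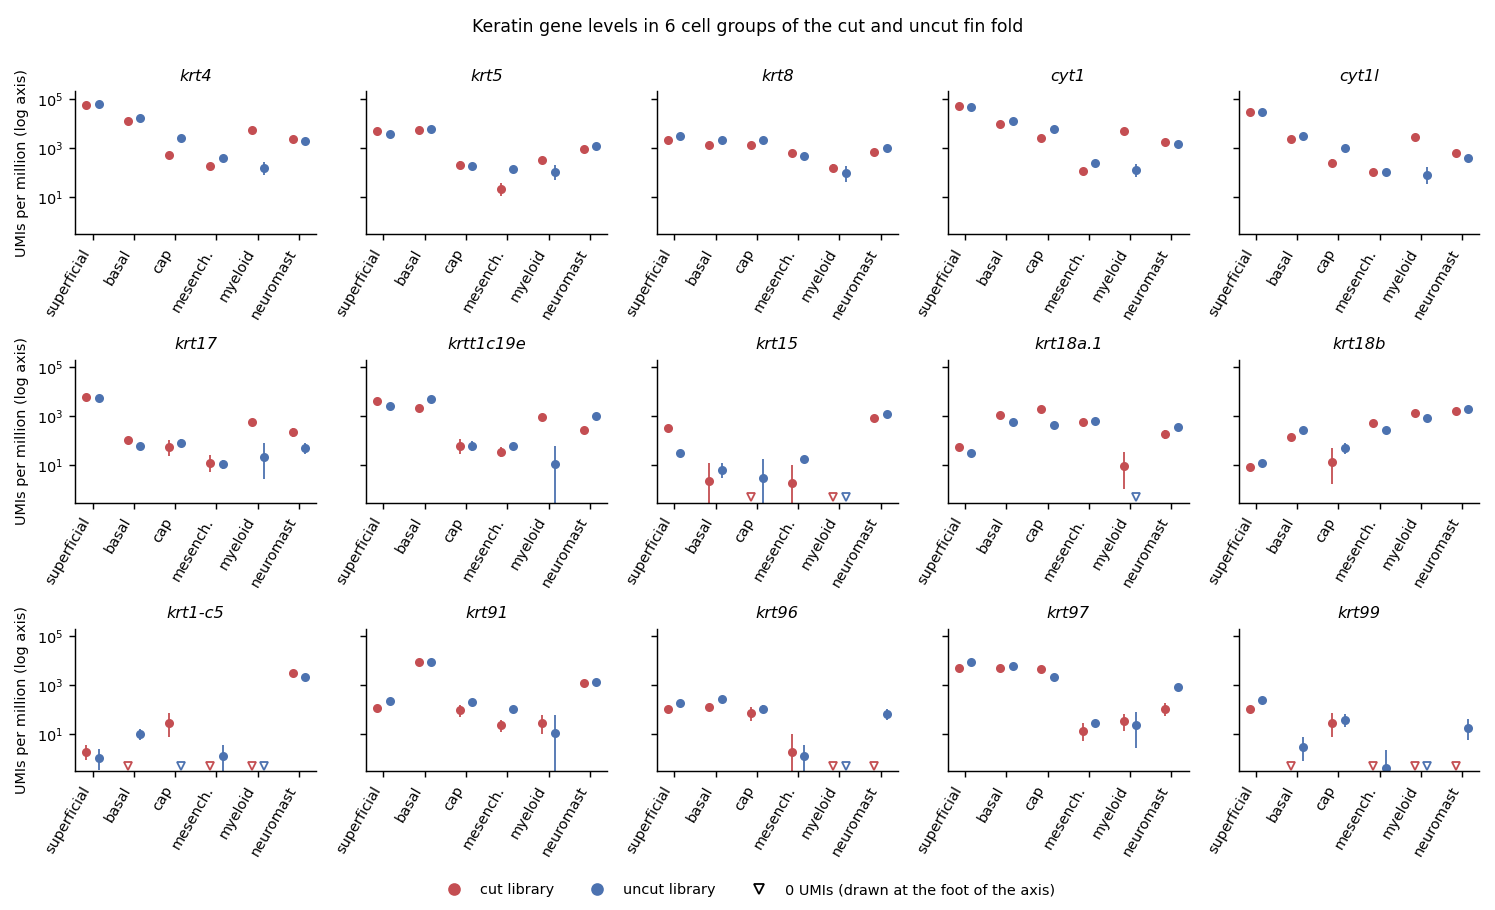
Levels of 15 keratin genes in 6 cell groups, in UPM on a log axis, with 1 point per library and bars for the exact Poisson counting interval; open triangles mark a count of 0. The reader should see krt4 and cyt1 falling from superficial-like to mesenchyme-like cells, krt91 standing highest in basal-like cells (9165 and 9054 UPM) and krt1-c5 in neuromast-like cells (3112 and 2185 UPM).

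The 5 superficial-like clusters held different keratin mixtures, although no keratin was used to make them. Cluster 8 was led by aep1, rhbg and rhcga, the last pair being Rh family ammonia transporters, and had the highest keratin share, 26.1% and 23.9% of UMIs in cut and uncut. Cluster 1, led by fut9d and also with rhbg and rhcga, followed at 18.3% and 19.2%. Cluster 5, led by the annexin gene anxa1c, stood at 14.0% and 13.5%, and cluster 2, led by cyp1a, at 9.71% and 12.1%. Cluster 6, in which ptgs2b, sp7 and tbx1 were among the leading genes, had the lowest share at 7.03% and 8.70%. That order of the clusters was the same in both libraries.

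The abundant genes followed that order only in part. In cut cells krt4 was highest in cluster 8 (95475 UPM) and lowest in cluster 6 (20681 UPM), a 4.62-fold spread, and in uncut cells these were also the highest and lowest clusters, with a 3.32-fold spread. For cyt1l the spread was 7.92-fold and 6.35-fold, again from cluster 8 down to cluster 6. The keratins krt8, krt97 and krt99 were instead lowest in cluster 1 and highest in cluster 5 or 6. Levels of krt8 rose from 212 and 146 UPM in cluster 1 to 8693 and 11241 UPM in cluster 6, a spread of 40.9-fold in cut and 76.8-fold in uncut. For krt97 the low cluster was again cluster 1 (1199 and 1432 UPM) but the high cluster was cluster 5 (16426 and 18791 UPM). The low-abundance krt99 went from 17.1 and 23.2 UPM in cluster 1 to 494 and 728 UPM in cluster 6. In uncut, cluster 8 held both the highest cyt1l (53259 UPM) and krt97 at 8007 UPM, so that the clusters did not divide cleanly by these genes.

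**Figure D3:**
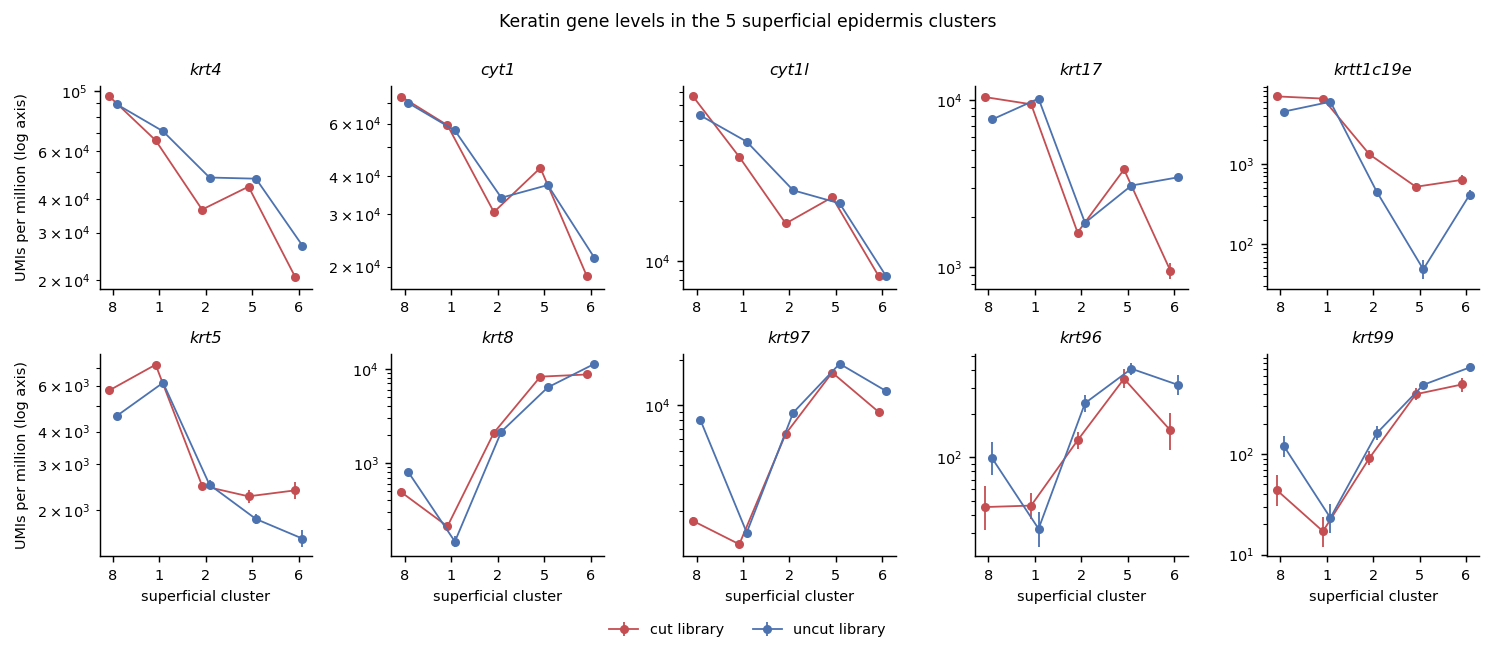
Levels of 10 keratin genes over the 5 superficial-like clusters, in the order 8, 1, 2, 5, 6, in UPM on a log axis, with a line per library. Levels of krt4, cyt1 and cyt1l are highest in cluster 8 and lowest in cluster 6, while krt8 climbs from 212 to 8693 UPM between cluster 1 and cluster 6 in cut cells.

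Pairs of keratins were also compared over single cells. After each cell was thinned to 2000 UMIs, krt4 and cyt1, a type II and a type I chain, had a Spearman correlation of 0.86 over 424 cut cells and 0.85 over 323 uncut cells (Pearson r 0.84 and 0.81). For pairs of the same type the correlation was also high. It was 0.78 and 0.77 for cyt1 with cyt1l (both type I), and 0.70 and 0.70 for krt4 with krt5 (both type II). For krt8 and krt97 it was 0.77 and 0.71 (r 0.72 and 0.48). Between krt8 and cyt1l the correlation was negative, -0.41 and -0.63 (r -0.33 and -0.50). These correlations describe cells that share a library and are given with no test. The share of type II chains varied less: krt4, krt5 and krt8 together made up 38.9% to 45.2% of the keratin UMIs in the 5 clusters of cut and 39.6% to 45.7% in those of uncut, and was highest in cluster 6 in both. In all superficial-like cells it was 40.2% (40.1 to 40.3) and 41.1% (41.0 to 41.2), or 41.5% and 43.7% when krt91 to krt99, whose type was not assigned, were left out of the total. With those genes left out, the range over the 5 clusters was wider. It then ran from 39.2% in cluster 8 to 52.4% in cluster 6 in cut, and from 40.7% in cluster 1 to 54.0% in cluster 6 in uncut.

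Basal-like cells shared the leading pair but added krt91. In them krt4 was at 12749 UPM (12415 to 13090) in cut and 15719 UPM (15511 to 15930) in uncut, and cyt1 at 9770 and 12050 UPM. They were followed by krt91 at 9165 UPM (8882 to 9454) and 9054 UPM (8896 to 9214), and then by krt5 (5573 and 6133 UPM), the orthologue by name of the mammalian basal keratin, and krt97 (4980 and 5922 UPM). Markers of superficial epidermis summed to 6659 and 8977 UPM in basal-like cells, against 23736 and 37951 UPM in superficial-like cells. Their part in the krt4 and cyt1 levels of basal-like cells was not tested. The basal-like cells were 28 of 762 and 97 of 878 cells but held 63.0% and 71.4% of all krt91 UMIs, 27.3-fold and 16.4-fold the level of all other cells. Against superficial-like cells krt91 was 76.0-fold and 39.6-fold higher. Among genes with at least 100 UMIs in the cells compared, 14 keratins could be set between the basal-like and the superficial-like cells of the cut library, and 3 of them (krt91, krt18a.1 and krt18b) were higher by a log2 ratio of at least 1 in basal-like cells, where 8.08% of all genes were. In the uncut library these 3 genes were again the ones above that ratio, against 11.3% of all genes. Lower by the same ratio in both libraries were krt4, krt15, cyt1l, cyt1, krt17 and krt99, 6 of 14, against 31.3% and 32.9% of all genes. Since clusters were drawn on these same cells, these counts are descriptions.

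Within the basal-like cells krt91 was unevenly spread. The quartiles of its level per cell were 122, 556 and 17940 UPM over the 97 uncut cells, and 722, 3488 and 9741 UPM over the 28 cut cells. Some basal-like cells therefore gave to krt91 a share of their RNA near that of krt4, and others almost none. In the uncut basal-like cells, thinned to 2000 UMIs, krt91 went with krt5 (rho 0.79, r 0.83) and with krtt1c19e (rho 0.76, r 0.66), and against krt97 (rho -0.61, r -0.43). Little relation was seen between krt91 and krt8 (rho -0.09, r -0.06). Of the superficial pair, krt4 and cyt1 had a correlation of only 0.12 in these cells (r 0.18), where it was 0.85 in uncut superficial-like cells. A cluster of 46 cut and 27 uncut shallow cells that no marker list could name (median 2127 and 2990 UMIs, led by zgc:136930, lgals1l1 and gstm.3) also held much krt91, 10050 and 21285 UPM, and krtt1c19e at 4363 and 12358 UPM. It was left out of the basal-like group, since under 3 markers of any class were raised in it.

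Cap-like cells had much less krt4 than superficial-like cells. Levels of krt4 were 490 UPM (381 to 622) in cut and 2475 UPM (2304 to 2654) in uncut, 115-fold and 23.8-fold lower than in superficial-like cells. In cut the leading keratins were krt97 (4429 UPM), cyt1 (2496 UPM), krt18a.1 (2020 UPM) and krt8 (1255 UPM), ahead of krt4. In uncut cyt1 (5828 UPM) led and krt4 came next, followed by krt97 (2138 UPM), krt8 (2002 UPM) and cyt1l (993 UPM), with krt18a.1 at 450 UPM. By its ratio to all other cells krt18a.1 was the keratin most raised in cap-like cells, 7.52-fold in cut and 1.22-fold in uncut. It was not particular to them. In uncut, basal-like (598 UPM), mesenchyme-like (643 UPM) and cycling cells (1319 UPM) held more krt18a.1, and in cut the unnamed cluster 10 held 2026 UPM. The simple epithelial gene krt8 was detected in 18 of 18 cut and 36 of 36 uncut cap-like cells, with median levels per cell of 1200 and 1469 UPM. In the uncut library 937 of the 1837 cyt1 UMIs of the group came from 1 cell, and without it the level was 3297 UPM. Of 13 keratins that could be compared with superficial-like cells, krt18a.1 alone was higher by a log2 ratio of at least 1, in cut and in uncut, against 15.4% and 14.3% of all genes. In cut 8 and in uncut 9 of the 13 were lower, against 25.8% and 26.9% of all genes, and cyt1l, krt17, krt5 and krtt1c19e were each at least 20.3-fold lower in both.

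Neuromast-like cells were marked by krt1-c5. This keratin stood at 3112 UPM (2809 to 3439) in cut and 2185 UPM (2019 to 2362) in uncut, and was detected in 14 of 18 and 25 of 31 cells. These cells held 95.3% and 91.2% of its UMIs in each library, so that its level was 1188-fold and 358-fold that in all other cells, the largest ratio of any keratin to the rest of a library. The group also held krt18b at 1665 and 1997 UPM, and krt15 at 865 and 1217 UPM, the latter detected in 14 of 18 and 23 of 31 cells. Levels of cyt1 were 1665 and 1460 UPM, and those of krt91 were 1237 and 1303 UPM. The highest cell of each library held 77 of 153 cut and 148 of 381 uncut krt91 UMIs. Its median per cell was 0 UPM in cut and 150 UPM in uncut. For cyt1 the highest cells held 84 of 206 and 178 of 427 UMIs. In the uncut library these 31 cells carried 49.4% of all krt15 UMIs. Relative to superficial-like cells 5 of 15 keratins (krt1-c5, krt18b, krt91, krt15 and krt18a.1) were higher by a log2 ratio of at least 1 in both libraries, against 21.2% of all genes in cut and 22.4% in uncut, and the other 10 were lower, against 17.1% and 16.4% of all genes. Markers of superficial epidermis summed to 10129 and 10137 UPM in neuromast-like cells, against 23736 and 37951 UPM in superficial-like cells, and their part in the krt4 level of 2215 and 1908 UPM was not tested.

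Mesenchyme-like cells held a low level of the simple epithelial set. In them krt18a.1 was at 621 UPM (556 to 692) in cut and 643 UPM (612 to 676) in uncut, krt8 at 600 and 453 UPM, and krt18b at 519 and 279 UPM. By its ratio to all other cells krt18b was the most raised in cut (4.93-fold) and krt18a.1 in uncut (2.24-fold). The superficial gene cyt1 was at 117 and 251 UPM. Cluster 3, led by tnn, cd248a and hhip, had the highest levels of the mesenchyme-like clusters (krt18a.1 at 929 and 884 UPM, krt8 at 842 and 629 UPM). Type I and type II members of this set were found in the same cells. Of the 36 cut mesenchyme-like cells with krt18a.1, 88.9% also had krt8, against 39.3% of those without it. In uncut 82.8% of the 93 cells with krt18a.1 had krt8, against 22.8% of those without. Cells with krt18b held krt8 in 76.2% of cases in cut and 55.2% in uncut, against 23.5% and 22.2% of the cells without it, and deeper cells have a higher chance of both. These shares pool clusters that differed in both genes. In uncut cluster 3, krt18a.1 and krt8 were detected in 60.7% and 74.6% of cells. The values were 11.7% and 14.4% in cluster 4, and 15% and 27.5% in cluster 11. How much of the shared detection came from these differences was not tested. Relative to superficial-like cells krt18a.1 and krt18b were 2 of 14 keratins that were higher by a log2 ratio of at least 1 in both libraries, against 11.8% and 18.2% of all genes, and 12 in cut and 11 in uncut were lower, against 28% and 28.5%.

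In myeloid-like cells krt18b stood at 1377 UPM (1224 to 1544) in cut and 872 UPM (688 to 1090) in uncut and was detected in 31 of 36 and 9 of 11 cells. It was 14.0-fold and 4.73-fold higher than in all other cells, but neuromast-like cells held more of it, at 1665 and 1997 UPM. The other krt18 gene, krt18a.1, had 2 UMIs in the cut and 0 UMIs in the uncut cells of this group. The krt4 level of 5098 UPM in cut came almost wholly from 1 cell, which held 1051 of the 1085 UMIs and 3021 keratin UMIs among 22499, and without that cell krt4 was at 179 UPM, beside 147 UPM in uncut. The same cell carried most of the cut levels of cyt1 (4858 UPM, 126 UPM without it), cyt1l (2758 UPM, 89.3 UPM without it) and krtt1c19e (935 UPM, 31.5 UPM without it). In uncut myeloid-like cells cyt1 was at 125 UPM, krt5 at 102 UPM and krt8 at 90.6 UPM. Muscle-like cells, which should lack keratins, were measured the same way. They held krt4 at 122 and 88.6 UPM, with a UMI in 4 of 4 and 6 of 8 cells at median depths of 16117 and 21029.5 UMIs. Levels of krt4 in mesenchyme-like cells were 174 UPM in cut and 388 UPM in uncut, or 226 UPM without the highest uncut cell, with a UMI in 56.7% and 71.8% of those cells at median depths of 3533 and 6697 UMIs. How much of this krt4 was free RNA was not tested. The ratio of krt8 to krt4 differed between the groups. For every 100 krt4 UMIs superficial-like cells held 3.70 and 5.32 krt8 UMIs and mesenchyme-like cells held 346 and 117, and in muscle-like cells krt8 was detected in 0 of 4 and 0 of 8 cells, which allows levels of up to 45.9 and 17.7 UPM. For krt18b the ratio per 100 krt4 UMIs was 0.0151 and 0.0208 in superficial-like cells, 299 and 72 in mesenchyme-like cells and 27.0 and 592 in myeloid-like cells. For cyt1 it was between 64.7 and 86.1 in superficial-like, basal-like, mesenchyme-like and neuromast-like cells of both libraries. In cap-like cells it was 509 and 236, in myeloid-like cells 95.3 and 84.6, and in muscle-like cells 37.5 and 53.3.

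Amputation is a wound to this epithelium, and the cut and uncut libraries were compared within superficial-like cells. Summed over all of these cells, the abundant genes were nearly level. The log2 ratio of cut over uncut was -0.06 for krt4 (-0.07 to -0.05), 0.08 for cyt1 (0.07 to 0.09) and 0.06 for krt17 (0.04 to 0.09, but -0.46 with coarser clusters), the last being the orthologue by name of the mammalian keratin of wounded epidermis. Of the 14 keratins with at least 100 UMIs, 1 was higher by a log2 ratio of at least 1, krt15, where 1.53% of the 4906 genes compared were, and 1 was lower, krt99, where 0.611% of all genes were. The median log2 ratio was -0.03 over the 14 keratins and 0.08 over all genes.

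For krt15 the level was 341 UPM (325 to 357) in cut against 32.2 UPM (27.3 to 37.7) in uncut, a log2 ratio of 3.40 (3.17 to 3.65), or 10.6-fold, and the log2 ratio ran from 2.19 to 5.02 over the alternative settings. Levels of krt99 were 108 UPM (99.4 to 117) in cut and 239 UPM (225 to 253) in uncut, a log2 ratio of -1.14, or 2.21-fold lower in cut. A UMI of krt99 was found in 33.6% of cut and 71.5% of uncut superficial-like cells, and in 18.9% and 35.9% when each cell was thinned to 2000 UMIs. Even the small ratios of krt4, cyt1 and krt17 had counting intervals that left out 0. Further genes short of a log2 ratio of 1 also had such intervals. On the lower side were krt97 at -0.88 (-0.90 to -0.85), krt96 at -0.86 (-1.01 to -0.71) and krt8 at -0.58 (-0.62 to -0.55). On the higher side were krt18a.1 at 0.85 (0.56 to 1.14), krtt1c19e at 0.56 (0.53 to 0.59) and krt5 at 0.35 (0.32 to 0.37). The ratio of krt18a.1 was -0.18 when cells were grouped by their highest marker score. Of the lower ones krt97, krt96 and krt8, and likewise krt99, had their highest levels in cluster 5 or 6. Also lower was krt91, whose highest level was in cluster 1 (209 and 486 UPM). Its log2 ratio of -0.92 (-1.06 to -0.78) moved to -0.24 without the highest cell of each library, since 573 of its 1100 uncut UMIs were in 1 cell, and it turned positive in the aggregated matrix (0.11) and when cells under 2000 UMIs were removed before clustering (1.47).

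The mixture of clusters differed between libraries and moved with these ratios. Cluster 1 was 143 of 434 cut and 71 of 323 uncut superficial-like cells, and cluster 5 was 51 and 88 of them. When the 5 clusters were given the same weight in both libraries, the log2 ratio of krt99 was -0.55, short of the ratio of 1, that of krt97 was -0.48, that of krt8 was 0.04 and that of krt15 was 3.28. Under that weighting krt91 was at -1.07. Within single clusters krt99 was lower in cut in 5 of 5, with log2 ratios from -1.44 to -0.31, and krt97 was lower in 5 of 5, from -2.22 to -0.19. A gene higher in cut in all 5 clusters was krtt1c19e, from 0.13 to 3.42. The abundant genes, nearly level in sum, went both ways over the clusters. For krt4 the log2 ratios ran from -0.39 to 0.10 (lower in cut in 4 of 5), and for cyt1 from -0.20 to 0.19. Wider ranges were those of cyt1l, from -0.55 to 0.32, and krt17, from -1.86 to 0.45. With counts of 0 set to 3, the ratio of krt15 was positive in 4 of 5 clusters, and cluster 8 went the other way with 1.30 UPM in cut and 171 UPM in uncut.

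The krt15 UMIs came from few cells. In the cut library 28 of 434 superficial-like cells had any krt15 UMI, and 18 cells with at least 10 UMIs (4.15%, exact binomial interval 2.48 to 6.48) held 1782 of the 1799 UMIs. In the uncut library 4 of 323 cells had at least 10 UMIs (1.24%, 0.338 to 3.14) and held 140 of 155. The highest cells had 385, 357 and 185 UMIs in cut and 85, 24 and 16 in uncut, and without them the level was 167 UPM in cut and 6.34 UPM in uncut. The 18 cut cells lay in clusters 1, 2, 5 and 6 (8, 6, 3 and 1 cells), and none lay in cluster 8, which held 2 of the 4 uncut cells. Outside the superficial-like cells, 1 cycling cell of the cut library had 416 krt15 UMIs.

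The rest of the keratin mixture of those 18 cells was compared with that of the 406 cut superficial-like cells without krt15. Levels of krt4 were alike, 54390 and 56864 UPM. In contrast krtt1c19e stood at 9510 against 3755 UPM, and krt18a.1 at 989 against 10.3 UPM, with a UMI in 8 of 18 against 29 of 406 cells. Keratins with their highest levels in cluster 5 or 6 were low in these cells, with krt97 at 704 against 4995 UPM, krt8 at 269 against 2242 UPM and krt99 at 7.91 against 115 UPM. The median depth was 12901 UMIs in the 18 cells and 10166.5 in the others. The 18 and the 406 cells were not matched by cluster. In cut cluster 1, which held 8 of the 18, krt97 was at 1199, krt8 at 212, krt99 at 17.1 and krtt1c19e at 6523 UPM. In cut cluster 2, which held 6 of them, these genes were at 6459, 2094, 91.4 and 1317 UPM. The part of the cluster mixture in these differences was not tested. The 18 cells were picked by krt15 after its level had been seen, so the values are a description.

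**Figure D4:**
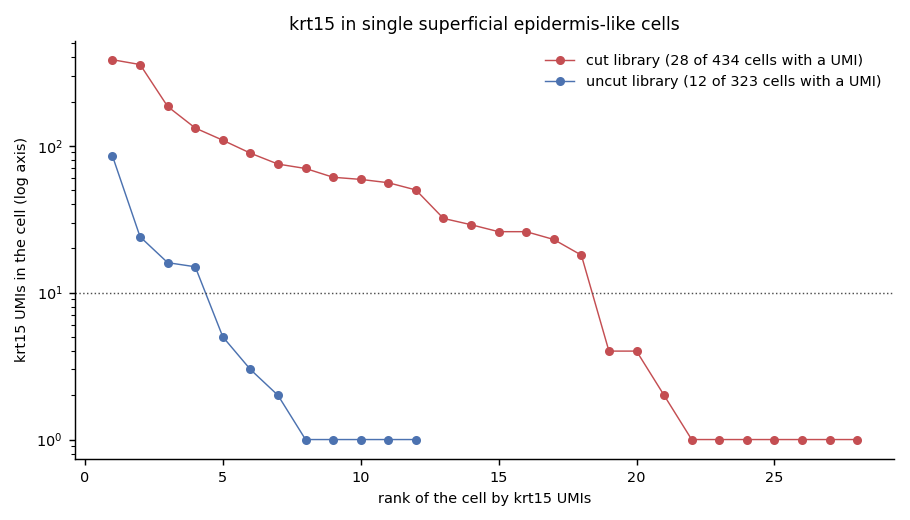
UMIs of krt15 in each superficial-like cell with at least 1, ranked from the highest down, for both libraries; the dotted line is at 10 UMIs. In cut 18 cells lie at or above the line and the highest has 385 UMIs, and in uncut 4 cells do and the highest has 85.

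Outside the superficial-like cells fewer keratins could be compared between conditions. In basal-like cells 12 keratins had at least 100 UMIs. None was higher in cut by a log2 ratio of at least 1, where 7.14% of all genes were, with krt18a.1 closest at 0.97 (0.80 to 1.13). Lower in cut were krtt1c19e at -1.14 (-1.24 to -1.04), krt96 at -1.13 (-1.56 to -0.72) and krt18b at -1.01 (-1.42 to -0.62), 3 of 12 against 4.6% of all genes. Summed over these cells krt91 was level, with a log2 ratio of 0.02 (-0.03 to 0.07), while its median per cell was 3488 UPM in cut and 556 UPM in uncut. For krtt1c19e the median was also higher in cut, 421 against 127 UPM, unlike its summed ratio. The medians of krt96 (48.6 against 214 UPM) and krt18b (0 against 27.0 UPM) were lower in cut. Behind each of these values stand 28 cut cells.

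In cap-like cells 2 of 6 keratins were higher in cut, against 8.02% of all genes, and 3 were lower, against 11.1%. The higher genes were krt18a.1, with a log2 ratio of 2.16 (1.87 to 2.47) and a UMI in 16 of 18 cut and 15 of 36 uncut cells, and krt97 at 1.05 (0.89 to 1.21), which was 0.59 without the highest cell of each library. Lower were krt4 at -2.33 (-2.71 to -1.98), cyt1l at -2.06 (-2.62 to -1.54) and cyt1 at -1.22 (-1.39 to -1.06), the last -0.93 without the highest cells. Markers of superficial epidermis summed to 6232 UPM in cut and 15697 UPM in uncut cap-like cells, and their part in the lower krt4 and cyt1 was not tested. With coarser clusters no cluster was named cap-like, and these ratios were not recomputed under other groupings.

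Among mesenchyme-like cells none of 9 keratins was higher in cut by that ratio, against 4.77% of all genes, and 4 were lower, against 2.56%. These were krt5 at -2.73 (-3.74 to -1.87), krt91 at -2.28 (-3.25 to -1.45), krt4 at -1.16 and cyt1, 2.14-fold lower. The krt5 and krt91 ratios rest on only 11 and 12 cut UMIs, and were -2.32 and -2.64 without the highest cell of each library. For krt4 and cyt1 the log2 ratios became -0.47 and -0.21 without the highest cell of each library, and the summed superficial markers were at 127 UPM in cut and 466 UPM in uncut mesenchyme-like cells. In the simple epithelial set the log2 ratio was -0.05 (-0.23 to 0.12) for krt18a.1, 0.41 (0.22 to 0.59) for krt8 and 0.90 for krt18b, whose interval ran from 0.69 to above 1 (0.87 without the highest cells). In neuromast-like cells 0 of 12 keratins were higher, against 2.53% of all genes, and krtt1c19e, krt97 and krt18a.1 were lower, against 5.07%. Without the highest cell of each library krtt1c19e went from -1.96 to -0.63 and krt97 from -2.95 to -0.92, 200 of its 238 uncut UMIs having come from 1 cell. In cut these lower ratios rest on 34 UMIs of krtt1c19e, 13 of krt97 and 23 of krt18a.1. The leading neuromast keratin krt1-c5 had a ratio of 0.51 (0.32 to 0.69), and 0.15 without the highest cells.

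The genes that tie keratin filaments to cell junctions were read as a list of 15 desmosome and linker genes, of which 6 were in the gene list. In superficial-like cells 5 of them (ppl, evpla, pleca, jupa and pkp3a) had at least 100 UMIs. Between cut and uncut 0 of 5 passed a log2 ratio of 1 in either direction, where 1.53% of all genes were higher and 0.611% lower. Their median log2 ratio was -0.31, against 0.08 for all genes, and their summed level was 3922 UPM in cut and 5011 UPM in uncut. Other intermediate filament genes were sparse in these cells. Of 19 listed, 15 were in the gene list and only lmnb1 and lmnb2, the nuclear lamins, had at least 100 UMIs, and neither passed. Among 12 early response genes that dissociation of tissue can raise, 10 had enough UMIs and 2, fosb and atf3, were higher in cut superficial-like cells, against 1.53% of all genes. Their summed level was 3640 UPM in cut and 2352 UPM in uncut, and its part in the keratin ratios was not tested.

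By their order on the chromosomes of the GRCz12tu assembly, which is not the build of these files and was used for gene order only, the members fell into few neighbourhoods. The genes krtt1c19e, krt92, cyt1l, cyt1, krt17 and krt91 were 6 protein-coding genes in an unbroken row. Their levels differed widely within 1 cell group, from 7.38 UPM for krt92 to 48745 UPM for cyt1 in cut superficial-like cells, and krt91 had its main site in basal-like cells. A second neighbourhood held krt93, krt94, krt98, krt15, krt99 and krt95, which spanned 24 protein-coding genes, and its members were low or undetected outside krt15 and krt99. The genes krt5, krt8 and krt18a.1 stood side by side, as did krt97 and krt96. In each superficial-like cluster of both libraries krt96 was lower than krt97, at 107 and 194 UPM over all superficial-like cells against 4783 and 8773 UPM.

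A part of the set was at or near the limit of detection. No UMI of krt93 or krt95 was found in either library, and krt98 had 1 UMI in all. The gene krt94 had 18 UMIs in each library, and krt92 had 48 in cut and 62 in uncut. In superficial-like cells a count of 0 allows levels of up to 0.568 UPM in cut and 0.623 UPM in uncut, and higher limits hold for the smaller groups. All 5 had under 100 UMIs in superficial-like cells and were not among the 14 keratins compared there between conditions.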

How the data were processed

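The authors deposited whole-number UMI counts per gene and cell of the cut and the uncut library, and a matrix aggregating both. Per the labels, reads were checked with FastQC and processed with Cell Ranger 3.1.0 against danRer11. The separate matrices were used as deposited. The aggregated one, in which the cut counts are lowered to 7033569 UMIs, was an alternative. No cell was removed and no doublet caller was run.

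The keratins left out, log2(scaled UMI + 1) values of genes seen in at least 3 cells were reduced to 15 principal components, linked by 15 neighbours and clustered by Leiden at resolution 1 (scikit-learn 1.9.0, leidenalg 0.10.2, python-igraph 0.11.9, numpy 2.4.6, python 3.11.15). A cluster was called like a class when at least 3 of its markers were raised (log2 ratio of at least 0.5, in at least 25% of cells) and no other class led, from 170 markers of 16 classes, 156 of them in the gene list. Counts were summed per group and library. Intervals at the 95% level were exact Poisson for UPM, exact binomial (Clopper-Pearson) for shares and conditional binomial for ratios (scipy 1.17.1). A ratio needed at least 100 UMIs in the cells compared, and a log2 ratio of at least 1 was counted. A count of 0 was set to 3. Summing, ratios and intervals were tested on simulated data.

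The members, gene lists and comparisons were chosen with earlier results of these data known. Named with values were the 5 highest keratins of each group, those past the ratio between conditions, that with the largest ratio to all other cells in each group, and the members by name. Keratins krt4, krt5 and krt8 were counted as type II, and krt15, krt17, krt18a.1, krt18b, krt1-c5, krtt1c19e, cyt1 and cyt1l as type I, from knowledge of the family, with the others unassigned. Alternatives changed the matrix, the resolution, the cells kept, the grouping, the UMI minimum, the scaling and the weight of clusters or of single cells.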

Additional observations from a re-analysis of the deposited data

Results flagged for a closer look

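A pair of keratins had log2 ratios of cut over uncut that passed 1 in opposite directions in different cell groups. For krt97 the log2 ratio was 1.05 in cap-like cells and -2.95 in neuromast-like cells. For krt18a.1 it was 2.16 in cap-like cells and -1.03 in neuromast-like cells. The difference between these groups was not tested, since each condition is 1 library. Cap-like cells numbered 18 in cut and 36 in uncut, and neuromast-like cells 18 and 31. Without the highest cell of each library the ratios of krt97 were 0.59 and -0.92, and those of krt18a.1 were 2.79 and -2.19. The neuromast-like ratios rest on few cut UMIs, 13 of krt97 and 23 of krt18a.1, and 14 of those 23 were in 1 cell.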

How the results depend on the processing

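Of 448 recomputed values, 275 stayed within their limits and 173 moved. Ratios of single genes between conditions were among them for superficial-like cells only. There krt15 and krt99 were the genes with a log2 ratio past 1, and neither changed its sign. In the other groups such ratios were recomputed only without the highest cell of each library. Short of that ratio, krt91 changed sign in the aggregated matrix (0.11) and with cells of at least 2000 UMIs (1.47), krt18b without its highest cell (0.39), krt18a.1 by z-score (-0.18), krt8 with clusters weighted alike (0.04), krt17 under 4 settings (down to -0.46 at resolution 0.5) and cyt1l under 5 (up to 0.24). For krt99 the log2 ratio was -0.55 with clusters weighted alike, where krt91 took its place as the gene lower in cut, and ran from -1.17 to -1.02 under the other settings. Keratins made up 15.8% of the UMIs of cut and 16.0% of those of uncut superficial-like cells, and these shares became 16.1% and 16.0% in the aggregated matrix, 9.97% and 11.0% at resolution 0.5, 13.9% and 13.6% at resolution 2, 14.7% and 14.9% with cells of at least 2000 UMIs, 13.7% and 13.9% without the 5% of cells with the most UMIs, and 15.9% and 15.8% with cells grouped by their highest mean marker z-score. With cluster 15 (19 and 5 cells), the unnamed cluster richest in keratins, added to the superficial-like cells, the uncut share was 16.1%. That cluster was added as a choice made after seeing the data. At resolution 0.5 the cluster led by Rh genes could not be named and fell out of the group, leaving 213 and 196 superficial-like cells. The type II share was 39.7% in cut in the aggregated matrix, 41.7% and 43.2% at resolution 0.5, 40.4% and 42.0% at resolution 2, and in uncut 41.5% without the 5% of cells with the most UMIs and 41.4% by z-score. Keratins higher in cut superficial-like cells went from 1 to 2 at resolution 0.5, with cells of at least 2000 UMIs, and without the highest cell or (chosen after seeing the data) the 3 highest cells of each gene, and to 3 without the 5% of cells with the most UMIs. The added genes were krtt1c19e at resolution 0.5 (1.78), krt91 with cells of at least 2000 UMIs (1.47), krt18a.1 without the highest cell (1.65), and krt18a.1 (2.27) and krtt1c19e (1.08) without the 5% of cells. Keratins higher in basal-like cells of uncut went from 3 to 5 at resolutions 0.5 and 2 and without the 5% of cells with the most UMIs. The causes were not tested. Keeping the keratins in the clustering changed none of these values. No paired analysis was possible because each condition is 1 library. The cap, neuromast and myeloid groups and the cut basal-like group rest on under 40 cells each, which limits their values. At resolution 0.5 the cap-like group held 0 cells in each library. Grouping by the highest mean marker z-score kept 9 of the 18 cut and 20 of the 36 uncut cap-like cells. Over the alternatives the keratin share of cut cap-like cells ran from 1.15% to 3.79%, and their type II share from 16.5% to 40.6%.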
